A study of Mus musculus with 18 samples.

Results

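Mammary cells that sense ovarian hormones and prolactin pass these cues on to their neighbors as secreted factors, and 7 genes for such factors or for their synthesis were followed here, of 31053 genes measured: Tnfsf11, Calca, Tph1, Stc2, Pthlh, Fgf10 and Cck. They were grouped beforehand as genes of signals that hormones induce in the gland. The levels below do not bear this out for every member in hormone-sensing cells. There Fgf10 was at the limit of detection, and Cck and Pthlh were mostly higher in other cell classes. Each was read in hormone-sensing mature luminal (ML) cells and in the other cell classes of 17 mouse mammary libraries made by droplet single-cell RNA sequencing. A cell was counted as ML when its UMIs (unique molecular identifiers, 1 per captured transcript) of the luminal keratins Krt8 and Krt18 outnumbered those of the basal keratins Krt5 and Krt14, and when the hormone receptor and co-regulator genes Prlr, Cited1, Pgr and Esr1 summed to 3 UMIs or more. By this rule 25803 of 123574 cells were ML, beside 44089 other luminal cells and 41828 basal cells.

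The C57BL/6 libraries came from glands at embryonic day 18.5 (E18.5), from mice at postnatal day 5, before puberty (2.5 weeks), from terminal end buds (TEBs) and ducts of mice in puberty (5 weeks) and from adults (10 weeks), with 1 library each. Adjacent E18.5 skin was used only for fibroblasts. The FVB/NJ libraries came from virgin adults of 10 weeks (3 libraries, A10, P7 and D12), pregnancy day 12.5 (2, H and G), pregnancy day 18.5 (2, F4 and B4), lactation day 10 (2, named F11 and D6) and glands after involution (1; the labels count 3 weeks from birth, the study's text 3 weeks from weaning). A further library came from SWISS adults of 10 weeks. The study's methods name only the FVB/N adults as virgin. Per the study, animals were pooled within a library and not staged for estrus, and epithelial cells were sorted before capture. The E18.5 gland and skin came from embryos with an Lgr5-GFP reporter, whose fluorescence guided their dissection. A fluorescent E-cadherin reporter guided the dissection by hand of the TEBs and ducts. The study lists as processed together the C57BL/6 adult, SWISS adult and pre-puberty libraries, and likewise TEBs with ducts, E18.5 gland with skin, and FVB/NJ adult with post-involution. Pregnancy and lactation libraries are not in that list, so stage and processing batch cannot be told apart in the FVB/NJ tests. The FVB/NJ stages are the only replicated ones, and p-values measure the spread between these libraries, which may be in part technical. The strains, with 1 C57BL/6 and 1 SWISS adult library, were described without a test.

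In the mammary gland, progesterone and estrogen act mainly on ML cells, few of which divide, and proliferation of their neighbors depends on factors that the ML cells release. Tnfsf11 encodes RANKL, the best known of these: it binds the receptor RANK (Tnfrsf11a) on luminal progenitors and basal cells and drives their expansion in pregnancy, while the decoy receptor osteoprotegerin (Tnfrsf11b) blocks it. Calca encodes calcitonin and, by alternative splicing, the neuropeptide CGRP. Tph1 encodes the rate-limiting enzyme of serotonin synthesis outside the brain, and serotonin is a local regulator of milk secretion. Stc2 encodes stanniocalcin 2, a secreted glycoprotein. Pthlh encodes the parathyroid hormone-related protein, which is needed for the embryonic mammary bud and mobilizes bone calcium in lactation. Fgf10 is a growth factor of mesenchyme that signals to epithelial FGFR2, and Cck encodes cholecystokinin, a peptide hormone of gut and brain.

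Total UMIs per library ran from 9920346 (P7) to 93234616 (D6), and cell quality limits kept at least 86.2% of barcodes except in lactation, where they kept 48.6% (F11) and 68.9% (D6). Of 153 pairs of libraries, the pair that shared most barcodes shared 239. ML cells made up 34.8% to 53.8% of epithelial cells in the adult libraries but 2.17% (H) and 2.37% (G) at pregnancy day 12.5, so that 233 and 301 ML cells stand behind those libraries, and between 287 and 515 behind each library of pregnancy day 18.5 and lactation. The ML label was checked on 7 markers the rule did not use (Foxa1, Areg, Ly6a, Prom1, Tbx3, Wnt4 and Spdef). Their summed level, in CPM (UMIs scaled to the same total of UMIs in every class of every library), was higher in ML than in other luminal cells in all 17 libraries, for example 924 against 39.0 in H, but by little at E18.5 (187 against 127, with 154 in basal cells) and in lactation library D6 (148 against 134). At postnatal day 5 it was 565 in ML and 488 in basal cells. The label was therefore not borne out by these markers in the E18.5 and D6 libraries and only in part at postnatal day 5. Among the FVB/NJ libraries the summed level of these markers in ML cells went down from 2761 to 3676 CPM in the adults to 924 and 958 at day 12.5, 277 and 199 at day 18.5 and 712 (F11) and 148 (D6) in lactation. Over the same stages the sum of 7 luminal progenitor markers, of which Csn3, Lalba and Trf encode milk proteins, was 498 to 3266, then 3817 and 4299, then 20555 and 28809, then 42123 and 39144 CPM in ML cells, against 36313 and 36850 in other luminal cells at day 18.5. The part of this shift in the stage changes of ML cells that follow was not tested. Milk transcripts took 6.60% and 6.71% of ML UMIs at day 12.5, 20.8% and 29.3% at day 18.5 and 44.8% (F11) and 74.3% (D6) in lactation, against at most 0.519% in the adults. Stage changes in the tests were therefore scaled by trimmed mean (TMM) on all genes, while CPM were not.

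The start regions of Tnfsf11, Calca, Stc2 and Cck are shown because the levels of these genes in ML cells differ between the stages in different ways, that of Calca without passing the test. Each is the RefSeq sequence (GRCm38) from 250 bases before to 50 after the annotated start, on the minus strand: chr14:78307994-78308293 for Tnfsf11, chr7:114636308-114636607 for Calca, chr11:31370012-31370311 for Stc2 and chr9:121495645-121495944 for Cck. Capitals mark the letters of 1 arm of an estrogen response element (AGGTCA, which the other strand shows as TGACCT) or of a cyclic AMP response element (TGACG, which the other strand shows as CGTCA); a whole element holds 2 such arms.
Tnfsf11: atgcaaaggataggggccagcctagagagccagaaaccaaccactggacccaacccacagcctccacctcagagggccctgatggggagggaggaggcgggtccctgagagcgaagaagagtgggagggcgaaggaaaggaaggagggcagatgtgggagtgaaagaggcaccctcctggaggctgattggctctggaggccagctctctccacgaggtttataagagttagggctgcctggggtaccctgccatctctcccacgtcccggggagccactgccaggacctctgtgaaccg
Calca: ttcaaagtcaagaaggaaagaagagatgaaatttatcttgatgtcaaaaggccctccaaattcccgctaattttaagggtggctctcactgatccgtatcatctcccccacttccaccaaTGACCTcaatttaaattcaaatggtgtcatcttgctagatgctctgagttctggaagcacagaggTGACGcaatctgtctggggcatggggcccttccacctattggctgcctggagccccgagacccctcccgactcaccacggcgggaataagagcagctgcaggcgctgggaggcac
Stc2: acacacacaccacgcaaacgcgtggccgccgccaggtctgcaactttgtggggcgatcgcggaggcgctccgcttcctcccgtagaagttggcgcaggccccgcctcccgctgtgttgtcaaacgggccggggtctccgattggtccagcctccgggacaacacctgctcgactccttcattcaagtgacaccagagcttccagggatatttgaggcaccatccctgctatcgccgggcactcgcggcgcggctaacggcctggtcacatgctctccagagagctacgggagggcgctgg
Cck: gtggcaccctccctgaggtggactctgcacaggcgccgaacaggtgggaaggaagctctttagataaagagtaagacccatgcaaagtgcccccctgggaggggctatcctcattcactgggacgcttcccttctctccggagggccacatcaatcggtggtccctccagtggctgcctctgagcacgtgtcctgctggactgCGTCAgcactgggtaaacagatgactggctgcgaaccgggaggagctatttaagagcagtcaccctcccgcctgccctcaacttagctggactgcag
Calca held 1 estrogen arm 130 bases and 1 cyclic AMP arm 65 bases before the start, and Cck held 1 cyclic AMP arm 47 bases before it. The 2 annotated Tph1 starts held 1 and 3 cyclic AMP arms, and the second also held 1 estrogen arm. The window of Tnfsf11 held neither, nor did those of Stc2, Pthlh and Fgf10, and no member's window held the STAT5 palindrome TTCNNNGAA or the progesterone and glucocorticoid response arm AGAACA, which the other strand shows as TGTTCT. Among 32851 RefSeq promoter windows of this length, 16.3% held the estrogen, 20.8% the cyclic AMP, 8.30% the STAT5 and 19.0% the AGAACA letters on either strand. These are matches of letters, not measured binding sites.

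Tnfsf11 (ENSMUSG00000022015) was close to absent from ML cells of most libraries and abundant at pregnancy day 12.5. The ML cells held 528 (H) and 754 (G) UMIs there, or 358 and 409 CPM. In the FVB/NJ adults they held 20 (A10), 67 (P7) and 13 (D12) UMIs, or 0.745, 17.4 and 0.774 CPM. The 2 day-12.5 libraries stood above all FVB/NJ libraries of other stages without overlap. At pregnancy day 18.5 ML cells held 9 (F4) and 25 (B4) UMIs (3.27 and 6.04 CPM), in lactation 39 (F11) and 4 (D6, all 4 in 1 cell; 32.8 and 0.667 CPM) and post-involution 38 (1.48 CPM). Adult, day-18.5 and lactation levels overlapped. Between E18.5 and the pubertal duct, ML cells held at most 2 Tnfsf11 UMIs in any library.

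By cell, 75.1% of ML cells had a Tnfsf11 UMI in H (95% Clopper-Pearson interval 69.0% to 80.5%) and 77.1% in G (71.9% to 81.7%), against 0.383% to 3.72% in the FVB/NJ adults. The intervals cover counting error only. In other luminal cells of H and G the share was 1.04% and 1.09% at a deeper median of 6935 and 7020 UMIs per cell (ML 4895 and 4839), and in basal cells 0.457% and 0.528% at 3206 and 3383. With every cell thinned to 2000 UMIs, leaving out shallower cells, the shares were 55.8% of 231 ML cells in H and 54.9% of 297 in G, 0.417% and 0.352% of other luminal cells and 0.287% and 0.253% of basal cells. Of the Tnfsf11 and Calca UMIs of a class, Tnfsf11 made up 14.2% in ML (13.3% to 15.2%), 14.8% in other luminal (11.9% to 18.1%) and 18.2% in basal cells (14.4% to 22.5%) of G, and 11.1% (10.2% to 11.99%), 15.0% (12.2% to 18.3%) and 15.7% (9.89% to 23.3%) in H. The 2 genes were thus in about the same ratio in ML and other luminal cells of G, while in H the interval of the other luminal cells lay above that of the ML cells. These intervals, and those for Tph1 that follow, take each UMI as independent. As 1 cell can hold many UMIs, they are too narrow to show a difference between classes. Of the Tph1 and Calca UMIs of G, Tph1 made up 9.35% in ML (8.56% to 10.2%) but 5.86% in other luminal (3.93% to 8.36%) and 3.88% in basal cells (2.02% to 6.69%), while in H the intervals overlapped at 8.12% (7.35% to 8.95%), 7.16% (5.09% to 9.73%) and 7.76% (3.61% to 14.2%). Whether the few UMIs outside ML cells came from free RNA in the droplets or from those cells was not tested. ML cells held 82.9% (H) and 83.3% (G) of each library's Tnfsf11 UMIs while being about 2% of its cells.

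**Figure D1:**
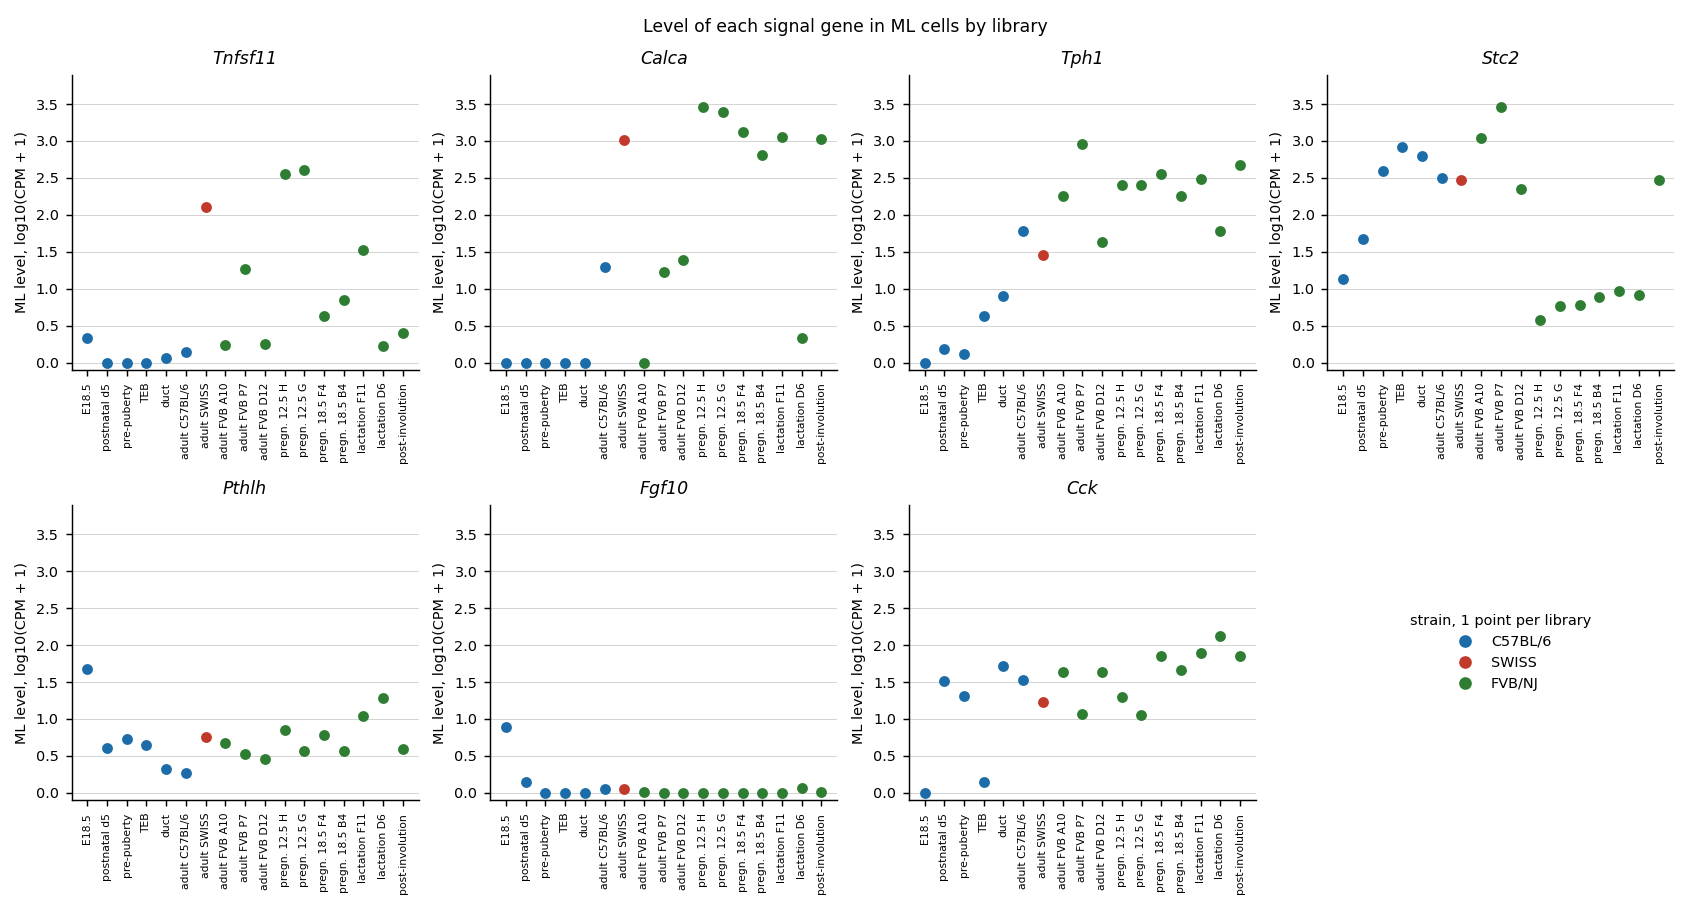
Level of each of the 7 genes in ML cells of every mammary library, as log10 of CPM plus 1, 1 point per library colored by strain. Tnfsf11 stands at 358 and 409 CPM in the day-12.5 pregnancy libraries and 125 in the SWISS adult, and Stc2 stays below 10 CPM in all 6 pregnancy and lactation libraries.

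Calca (ENSMUSG00000030669) was higher in both libraries of pregnancy day 12.5 than in every adult of the strain, but its spread among the adults was wide. ML cells held 0 Calca UMIs in A10 (0 of 3657 cells, which allows up to 0.0820% of cells with a UMI and sets no limit on cells that express the gene), 62 in P7 and 396 in D12 (16.1 and 23.6 CPM), and 4242 (H) and 4557 (G) at day 12.5, or 2877 and 2473 CPM. Up to 154 UMIs were counted in 1 cell. The level was 1329 (F4) and 639 (B4) CPM at day 18.5, so that these libraries lay below day 12.5 and above all adults of the strain. In lactation the 2 libraries disagreed, with 1145 CPM in F11 and 1.17 CPM in D6, where 1 cell held all 7 UMIs. Post-involution the level was 1078 CPM, against 0 to 23.6 in the virgin adults of the strain, with 1 library and no test. No Calca UMI was counted in ML cells of the 5 C57BL/6 libraries from E18.5 to the pubertal ducts.

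Calca UMIs were present in 85.0% (H) and 84.1% (G) of ML cells at day 12.5, 59.6% and 34.1% at day 18.5, 44.3% in F11 and 44.3% post-involution. Thinned to 2000 UMIs the shares were 78.8%, 80.8%, 53.6%, 28.5%, 50.5% and 37.5%, against 0.448% to 3.08% in other luminal cells of those libraries. The gene count does not tell calcitonin from CGRP. The neighboring paralog Calcb, 82285 bases away on chromosome 7, had at most 23 UMIs in ML cells of any library, and reads that fit both genes cannot be assigned with certainty.

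Tph1 (ENSMUSG00000040046) differed from these 2 genes in being abundant in ML cells of the FVB/NJ adults already. The adults spread from 42.5 CPM (D12) through 177 (A10) to 900 (P7), and the pregnancy and lactation libraries lay within that range at 254 (H), 255 (G), 361 (F4), 180 (B4), 301 (F11) and 58.7 (D6). Post-involution ML cells had 475 CPM. The order of the stage means is therefore set by the adult libraries and no stage stood apart from its neighbors. By cell, a UMI was present in 61.4% (H) and 61.8% (G) of ML cells at day 12.5, 60.4% and 44.2% at day 18.5, 55.4% and 35.4% in lactation and 61.5% post-involution, against 37.2% (A10), 43.3% (P7) and 11.3% (D12) in adults. At 2000 UMIs per cell the adult and later ranges overlapped, with P7 at 37.2% and H, G and D6 at 39.8%, 38.0% and 18.5%. Earlier, 89 UMIs were counted in ML cells of the TEBs and 82 in those of the ducts (2.61% and 5.23% of cells), 4 at postnatal day 5, 3 before puberty and 0 at E18.5. In other luminal cells the share was highest in P7 (6.32%) and below 5% in every other library, with no UMI in the C57BL/6 libraries from E18.5 to the ducts.

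Stc2 (ENSMUSG00000020303) moved the opposite way from Tnfsf11 and Calca: it marked ML cells before pregnancy and was all but lost from them in pregnancy and lactation. ML cells of A10, P7 and D12 had 1080, 2878 and 222 CPM and 92.9%, 95.5% and 57.4% positive cells. At day 12.5 they held 4 and 9 UMIs (2.71 and 4.88 CPM), at day 18.5 14 and 28 (5.09 and 6.77) and in lactation 10 and 43 (8.41 and 7.17). All 6 libraries lay below all adults, without overlap. In these 6 libraries the share of positive ML cells, 1.72% to 9.87%, was below that of the other luminal cells of the same library, 5.33% to 10.9%. The ML cells were also shallower, with a median of 2953 against 8626 UMIs in F11, so the shares alone do not rank the classes. By mean level, ML against other luminal cells had 3.80 against 8.14 CPM at day 12.5, 5.93 against 10.2 at day 18.5 and 7.79 against 7.03 in lactation. No expression particular to ML cells can be read from these values. Post-involution the level was back at 293 CPM, within the adult range. Stc2 was also present in ML cells early: 46.5 CPM at postnatal day 5, 391.8 before puberty, 815 in the TEBs and 630 in the ducts, with 35.9%, 67.4%, 96.1% and 86.3% positive cells.

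**Figure D2:**
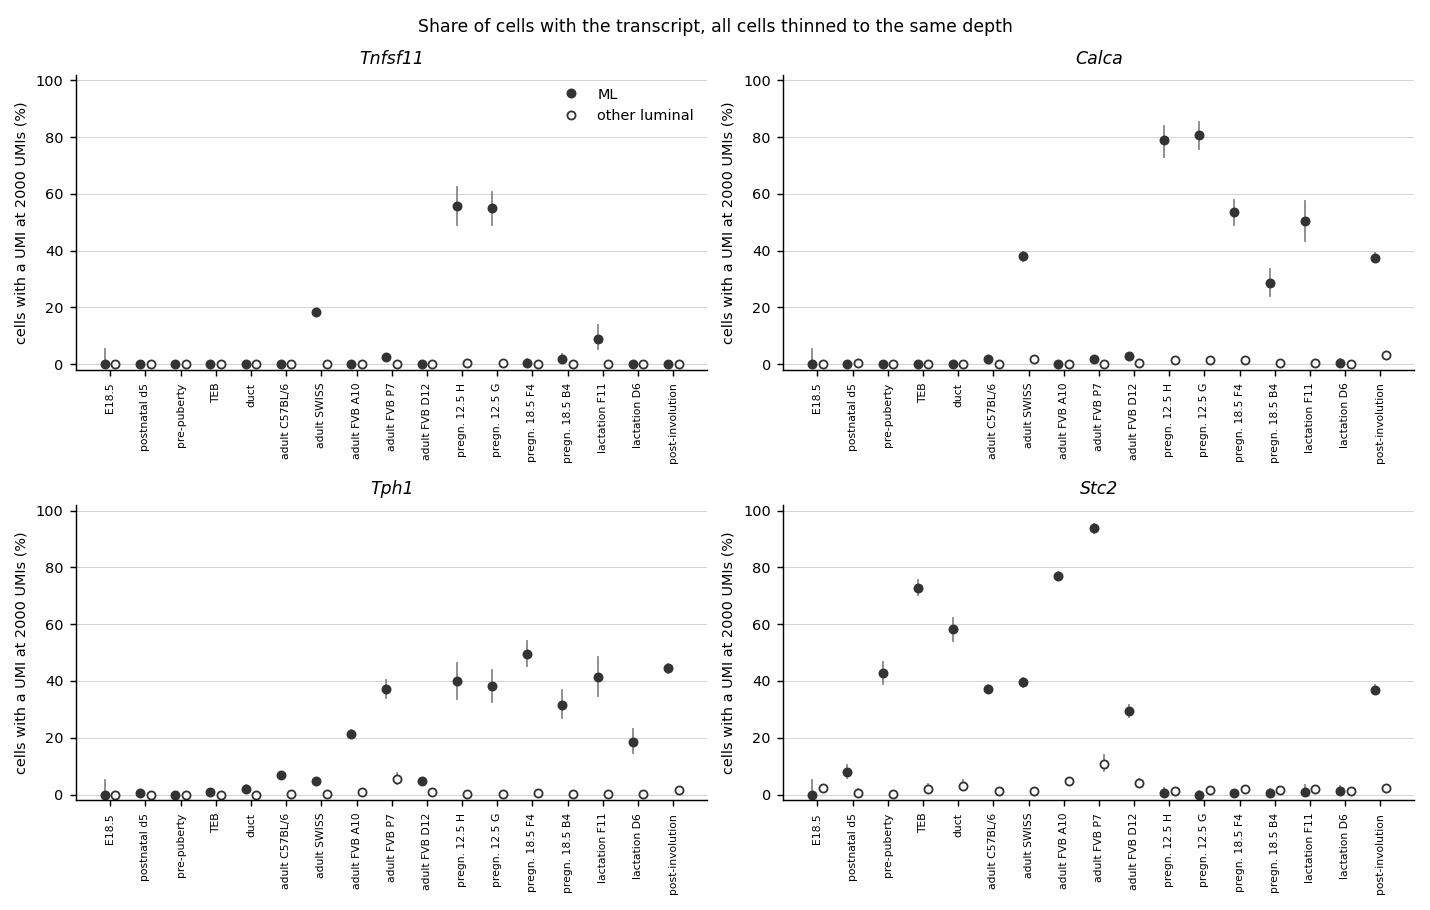
Percent of cells with at least 1 UMI of Tnfsf11, Calca, Tph1 and Stc2 after every cell was thinned to 2000 UMIs, by library, for ML and other luminal cells. Tnfsf11 is found in 55.8% and 54.9% of ML cells at pregnancy day 12.5 and in under 1% of other luminal cells there.

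Cck and Pthlh were not ML genes in most libraries. Cck (ENSMUSG00000032532) was highest in other luminal cells, at 206 to 374 CPM in the FVB/NJ adults (26.1% to 41.6% of cells) against 10.6 to 42.7 CPM in ML cells. It fell there to 14.2 (H) and 13.2 (G) CPM at day 12.5 and stood at 81.9 (F4), 53.7 (B4), 114 (F11) and 129 (D6) afterwards. Milk transcripts took 76.7% (F11) and 79.9% (D6) of other luminal UMIs, against at most 5.86% in the FVB/NJ adults. The CPM therefore do not show that Cck stayed below the adult level in lactation. Its mean share of positive other luminal cells was 60.5% in lactation and 33.9% in these adults, at unequal depth. In ML cells Cck was at 19.0 and 10.3 CPM at day 12.5, 70.9 and 44.7 at day 18.5 and 77.4 and 131 in lactation. The TEBs held 1 Cck UMI in their other luminal cells, while 48.3% of those cells were positive in the ducts of the same age (210 CPM). By CPM, Pthlh (ENSMUSG00000048776) was higher in basal than in ML and other luminal cells from postnatal day 5 on outside the TEBs, at 24.5 (A10), 78.7 (P7) and 25.0 (D12) CPM in adults. ML cells had 3.799, 2.33 and 1.85 CPM there, 6.10 and 2.71 at day 12.5, 5.09 and 2.66 at day 18.5 and 10.1 and 18.3 in lactation. Both lactation libraries lay above all other FVB/NJ libraries in ML cells. The same was seen in other luminal cells, with 15.3 (F11) and 17.9 (D6) CPM and 12.9% and 25.3% positive cells. Other luminal cells held 61.2% (F11) and 69.5% (D6) of the Pthlh UMIs, and basal cells 14.8% and 6.99%. Milk transcripts took 61.0% (F11) and 38.2% (D6) of basal UMIs, against 76.7% and 79.9% in other luminal cells. The order of these classes by CPM in lactation is not corrected for this unequal milk load. In the TEBs 31.1% of other luminal cells held Pthlh (43.2 CPM). Their 6 basal markers summed to 2168 CPM there against 558 in other luminal cells of the ducts, and their luminal progenitor markers to 2591 against 10171. At postnatal day 5 the basal markers were higher in other luminal (4989 CPM) than in basal cells (2843 CPM), so that the class label does not hold by these markers there. The part of either in the Pthlh and Cck levels was not tested. For Pthlh, levels at E18.5 were spread over luminal (67.7 CPM) and basal cells (56.6 CPM).

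Fgf10 (ENSMUSG00000021732) was at the limit of detection in ML cells. Over the 17 libraries 18 ML cells held a UMI of it, at most 5 in a library, and 17 of the 18 also held 3 or more collagen UMIs, which mark fibroblasts. Of the ML cells without Fgf10, 50.8% held as much collagen at E18.5, so the mark does not set its 4 positive cells apart. In the other mammary libraries that share was at most 1.46%. No UMI was counted in the 4 pregnancy libraries, which allows up to 1.29% of ML cells with a UMI in H and 0.583% in F4 and sets no limit on cells that express the gene. Fibroblasts held it in 9.47% of cells at E18.5 (21.2 CPM), 7.77% in E18.5 skin, 8.52% at postnatal day 5 and 4.41% in A10. It did not pass the filter on low counts in any comparison and was not tested.

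**Figure D3:**
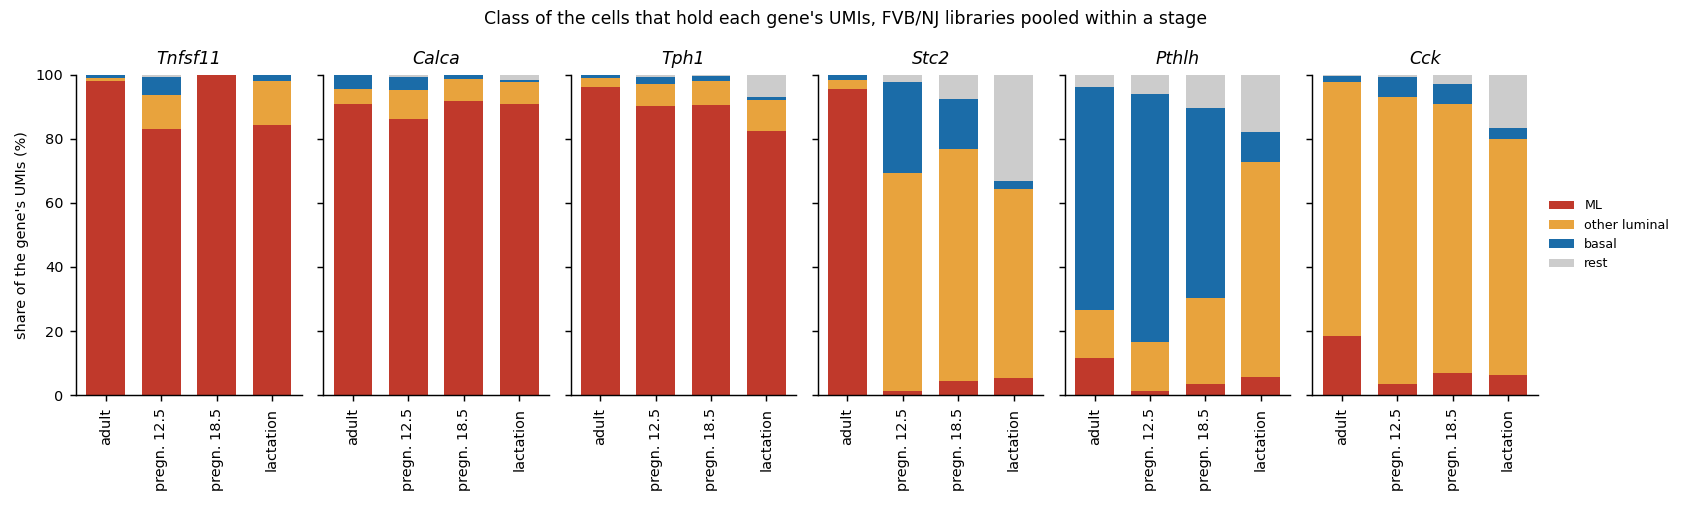
Percent of the UMIs of each gene except Fgf10 that lie in ML, other luminal, basal and all remaining cells, by FVB/NJ stage with libraries of a stage pooled. Tnfsf11, Calca and Tph1 lie mostly in ML cells, few Stc2 UMIs lie in them from pregnancy day 12.5 to lactation, and Cck and Pthlh lie mostly outside ML cells.

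The stage comparisons used edgeR's quasi-likelihood test on UMIs summed per library and class, with p-values adjusted over all genes tested by the Benjamini-Hochberg method and a call at an adjusted p under 0.05. Each SE of an edgeR change was derived from the log2 change and the F statistic of its test. It adds nothing to the p-value and is a poor measure for genes near 0 UMIs in a group. From adult to pregnancy day 12.5 in ML cells, 2 of the 6 members tested were called, against 5.52% of 11351 genes. Tnfsf11 rose by 6.29 ± 1.34 (log2, SE; adjusted p = 0.024; 3 adult and 2 pregnancy libraries), and Stc2 fell by 8.40 ± 1.17 (adjusted p = 0.00312). Calca, at a log2 change of 7.74 ± 2.13, missed the threshold (adjusted p = 0.0608) although both day-12.5 libraries lay far above the highest adult. Tph1 (−0.40 ± 0.88, adjusted p = 0.833), Pthlh (0.60 ± 0.73, adjusted p = 0.677) and Cck (−1.24 ± 0.76, adjusted p = 0.370) were not called. With libraries left out one at a time, the Tnfsf11 call was lost without H (adjusted p = 0.109), G (0.125), F4 (0.0502) or B4 (0.0523), the Stc2 call without H (0.0715) or G (0.0644), and Calca was called without A10 (0.0467), F11 (0.0344) or D6 (0.0345). Each kept its direction. DESeq2 called all of Tnfsf11, Calca and Stc2.

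From pregnancy day 12.5 to 18.5, edgeR called 0 of 6 members in ML cells and 0% of genes, with 851 genes at an unadjusted p under 0.05 and 87 called by DESeq2, none of them a member. Tnfsf11 had the widest gap, −5.98 ± 1.60 (unadjusted p = 0.00338, adjusted p = 0.362), lower in both day-18.5 libraries than in both of day 12.5. Cck stood at 2.27 ± 0.83 (adjusted p = 0.529). From day 18.5 to lactation 0 of 6 were called, against 0.0264% of genes (682 genes at an unadjusted p under 0.05, 91 called by DESeq2). Pthlh was at 3.44 ± 0.75 (adjusted p = 0.178), and it was the 1 member DESeq2 called. For the members not called, the 2 libraries per stage leave wide errors, and a missed threshold does not show equal levels.

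From adult to lactation 3 members were called in ML cells, against 6.93% of genes: Stc2 fell by 5.78 ± 1.02 (adjusted p = 0.00619), and Pthlh (4.13 ± 0.63, adjusted p = 0.00263) and Cck (3.37 ± 0.71, adjusted p = 0.0164) rose. All 3 calls were lost without D6 (adjusted p of 0.120, 0.180 and 0.321), that of Stc2 also without F11 (0.0550). Without TMM scaling the median gene moved to −1.58, and Pthlh (2.43, adjusted p = 0.0107), Cck (1.70, adjusted p = 0.0371) and Stc2 (−7.50, adjusted p = 0.00174) kept their directions. Over all genes, leaving TMM scaling out turned 585 higher and 202 lower calls into 307 and 4929. Calca stood at 6.41 ± 2.02 (adjusted p = 0.0906) and turned to −1.33 without F11. In D6, thinned to 2000 UMIs, Pthlh was found in 0 of 77 ML cells with a Cited1 UMI and 12 of 247 without, and Cck in 3 of the 77 and 51 of the 247. Before thinning, its Cck-positive ML cells had a median of 23472 UMIs against 2244 in Cck-negative ones, and its Tph1-positive cells 2073 against 20810. Library D6 is also the one whose ML cells had the most milk transcripts and did not stand apart by ML markers, and the part of this in the calls was not tested.

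Other luminal cells gave 2 calls from adult to day 12.5, against 8% of 13844 genes: Cck fell by 4.06 ± 0.49 (adjusted p = 0.00377) and Tnfsf11 rose by 5.45 ± 1.27 (adjusted p = 0.0368). The Tnfsf11 call sets 85 (H) and 78 (G) UMIs against 0 (A10), 1 (P7) and 0 (D12), so that the gene passed the filter only through day 12.5 and the fitted change is no measure of its size. It was lost with a stricter ML rule of 5 hormone-gene UMIs (adjusted p = 0.214) and without any 1 library of A10 (0.0770), D12 (0.0783), H (0.246), G (0.220), F4 (0.0679) or B4 (0.0646). The Cck call was lost without H (0.0887) or G (0.0875). From day 12.5 to 18.5 Cck rose by 2.79 ± 0.48 (adjusted p = 0.0426), the 1 call, against 0.563% of genes. It was lost without any 1 of H (0.652), G (0.649), F4 (0.236), B4 (0.238), F11 (0.0756) or D6 (0.0771). From day 18.5 to lactation Pthlh (4.37 ± 0.68, adjusted p = 0.0106) and Cck (2.57 ± 0.47, adjusted p = 0.0221) rose, against 2.46% of genes. The Pthlh call was lost without F4 (0.151), B4 (0.179) or D6 (0.0861), and that of Cck without H (0.0659), G (0.0663), F4 (0.191), B4 (0.255), F11 (0.0591) or D6 (0.148).

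In basal cells edgeR called no member at any of the 3 steps, against 0.88% of 13189 genes at day 12.5, 0.00758% at day 18.5 and 2.29% in lactation. The counts of genes at an unadjusted p under 0.05 were 1908, 1149 and 1972, and DESeq2 called 3, 1 and 2 members. The closest at day 12.5 was Tnfsf11 (5.42 ± 1.05, edgeR adjusted p = 0.0504, and called without P7, 0.0468). It sets 20 (H) and 66 (G) UMIs against 0 (A10), 0 (P7) and 1 (D12), so that it passed the filter only through day 12.5. Its fitted change in basal cells is therefore no measure of size, and its p-values add no support. In lactation the closest were Cck (3.66 ± 0.87, edgeR adjusted p = 0.0590, and called without P7, 0.0238, or D12, 0.0326) and Pthlh (2.002 ± 0.54, adjusted p = 0.0947, and called without P7, 0.0139).

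**Figure D4:**
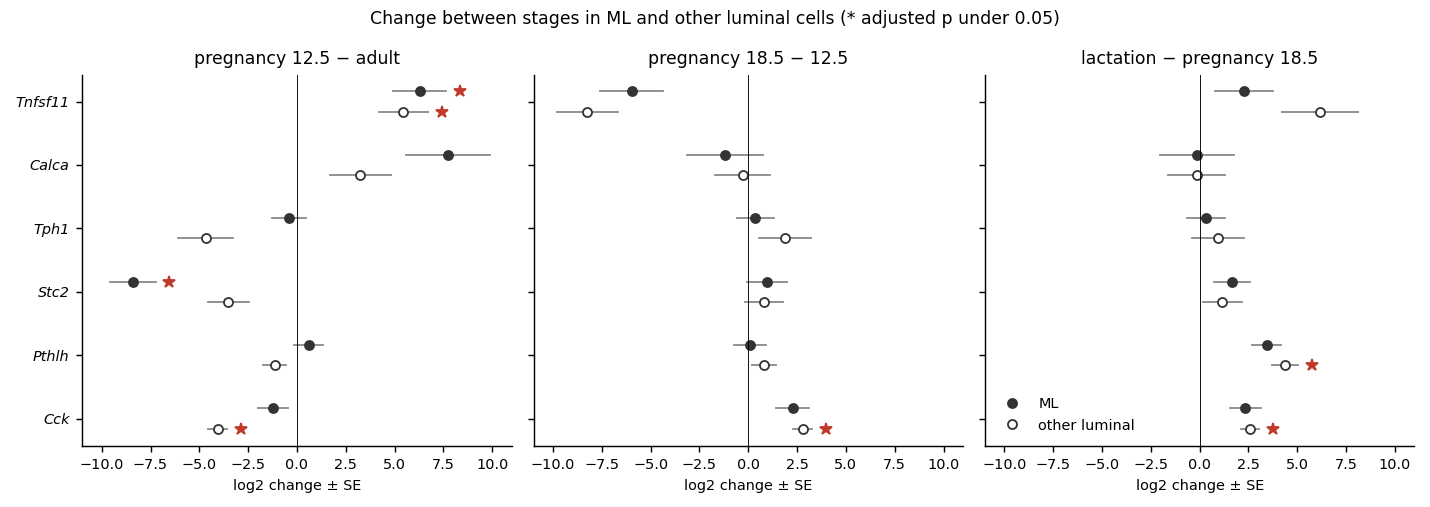
Log2 change with its standard error (derived from the F statistic) of each tested gene between FVB/NJ stages, in ML and other luminal cells, from edgeR fits. Stars mark adjusted p under 0.05: Tnfsf11 (6.29) and Stc2 (−8.40) in ML cells and Cck (−4.06) and Tnfsf11 (5.45) in other luminal cells from adult to pregnancy day 12.5, and in other luminal cells Cck at the later steps (2.79 and 2.57) and Pthlh in lactation (4.37). Tnfsf11 in other luminal cells has at most 1 UMI in each adult and day-18.5 library.

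Whether the change differed between ML and other luminal cells of the same libraries was tested in 1 model with the library as a term. From adult to day 12.5 the difference (ML change minus other luminal change) was called for 4 of 6 members, against 10.5% of 13725 genes. It was 4.85 ± 0.54 for Calca (adjusted p = 8.17e-05), 3.79 ± 0.56 for Tph1 (adjusted p = 0.000627), −5.27 ± 0.71 for Stc2 (adjusted p = 0.000274) and 2.98 ± 0.56 for Cck (adjusted p = 0.00384; lost without H, 0.0789). For Tph1 the ML change was −0.40 and the other luminal change −4.68 ± 1.42 (adjusted p = 0.0702). In other luminal cells of A10, P7 and D12 Calca had 0, 6 and 17 UMIs, and Tph1 had 37 (H) and 28 (G) at day 12.5, so that this side of those differences rests on few UMIs. Stc2 had 129 to 746 UMIs there in the adults and 354 and 342 at day 12.5. Its level in other luminal cells fell too, from a mean of 127 CPM in the adults to 8.14 at day 12.5. The change there was −3.51 ± 1.04 (adjusted p = 0.065). The difference for Tnfsf11, whose other luminal side holds 1 UMI in the 3 adults, was 1.88 ± 1.64 (adjusted p = 0.607). It was 4.29 (adjusted p = 1.91e-05) with Prlr left out of the ML rule, 3.95 (adjusted p = 0.00216) with a rule of 5 UMIs and −0.12 (adjusted p = 0.717) with 1000 or more genes per cell. In the same test 6 of 7 luminal progenitor markers were called higher, and their part in these differences was not tested. For the later steps edgeR called 0 of 6 differences, against 0.277% and 0.226% of genes, with 885 and 925 genes at an unadjusted p under 0.05 and 0 members called by DESeq2.

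Within the 5 adult libraries of 3 strains, ML cells were compared with the other classes, with library as a term and the 8 genes of the class rules left out. Against other luminal cells 5 of 6 members were called, against 45.1% of 13379 genes: Tnfsf11 (6.76 ± 0.41, adjusted p = 4.15e-07), Calca (5.54 ± 0.82, adjusted p = 0.000291), Tph1 (4.78 ± 0.49, adjusted p = 9.94e-06) and Stc2 (4.56 ± 0.62, adjusted p = 8.2e-05) were higher in ML cells and Cck was lower (−2.85 ± 0.47, adjusted p = 0.000342). Pthlh was not called (−0.24 ± 0.57, adjusted p = 0.764). Against basal cells all 6 were called, against 62% of genes, with Pthlh the 1 lower in ML cells (−3.32 ± 0.53, adjusted p = 0.000139). For Tnfsf11 and Calca these comparisons set ML cells against classes close to 0: other luminal cells of A10, P7, D12, the C57BL/6 and the SWISS adult held 0, 1, 0, 0 and 20 Tnfsf11 UMIs and 0, 6, 17, 1 and 145 Calca UMIs, and basal cells 0, 0, 1, 0 and 34 and 0, 0, 23, 6 and 157. Their fitted changes are therefore no measure of size, and a gene that passes the filter through the class where it is high had to differ. Without the SWISS library Tnfsf11 did not pass the filter and was not tested, while Calca was called at 3.75 (adjusted p = 0.00181) against other luminal and 4.38 (adjusted p = 0.00034) against basal cells.

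The SWISS adult set itself apart from the other adults. Its ML cells held 5055 Tnfsf11 UMIs (125 CPM, 40.6% of cells) and 41333 Calca UMIs (1020 CPM, 51.8% of cells), that is 7.18 and 43.3 times the highest FVB/NJ adult. The C57BL/6 adult, processed together with it, had 17 Tnfsf11 UMIs (0.373 CPM) and 854 Calca UMIs (18.8 CPM). Thinned, the SWISS shares were 18.3% and 38.0%, against 0.0374% and 1.68% in its other luminal cells. Tph1 (27.8 CPM) and Cck in ML cells of the SWISS adult were, for Tph1, below all FVB/NJ adults and, for Cck (15.9 CPM), within their range, and Stc2 (296 CPM) lay within it. The FVB/NJ adults themselves differed 23.3-fold in Tnfsf11, 21.2-fold in Tph1 and 12.98-fold in Stc2, with P7 highest in each. P7 was also the shallowest library and had shorter barcodes (14 bases against 16), and the part of either in its levels was not tested. With 1 SWISS library, strain, estrus stage and library cannot be told apart.

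In each library named here, Calca was found more often in ML cells with Tnfsf11 than in those without it, and Tph1 more often in those with Calca than without. In cells thinned to 2000 UMIs, Calca was found in 96.1% of Tnfsf11-positive and 56.9% of Tnfsf11-negative ML cells of H, 97.5% and 60.4% in G, and 67.9% and 31.2% in the SWISS adult. Tph1 was found in 47.3% of Calca-positive and 12.2% of Calca-negative cells of H, 71.1% and 24.8% in F4, 58.3% and 20.9% in B4 and 54.1% and 38.6% post-involution. Stc2 ran the other way in the SWISS adult, with 28.3% of Calca-positive against 46.4% of Calca-negative cells, but not post-involution, the other library where both genes were common (36.5% against 37.2%). These are counts of cells within a library and carry no test. Before thinning, the positive cells were the shallower ones in pregnancy, with a median of 4603 UMIs against 9073 by Tnfsf11 in H and 4489 against 8829 in G, 3747 against 7090 by Calca in F4 and 7402 against 14780 in B4. In the SWISS adult and post-involution they were the deeper ones, with 10263 against 9059 and 7231 against 4799 by Calca. The part of this in the shares was not tested. The split by Cited1, a co-regulator of the estrogen receptor and 1 of the genes of the ML rule, differed between signals and stages. As Cited1 counts toward the rule, the rule itself in part sets which cells fall on each side. Splits by Prlr, Pgr and Esr1 are not given here. Tnfsf11 was found in 71.6% (H) and 70.9% (G) of Cited1-positive ML cells and 41.8% and 41.7% of the others. Tph1 was found in 52.3% against 28.7% in H and 74.2% against 26.5% in F4, but in 33.8% against 44.7% in P7 and 4.88% against 8.18% in the C57BL/6 adult. Cck was found in fewer Cited1-positive than Cited1-negative cells of the ducts (2.56% and 17.2%), A10 (1.65% and 5.75%) and post-involution (2.61% and 13.3%), while the shares were 3.67% and 2.46% in H, 2.99% and 2.45% in G and 2.56% and 3.05% in the SWISS adult. None of these splits was tested. In lactation library D6 Tph1 was found in 72.7% of 77 Cited1-positive and 1.62% of 247 Cited1-negative cells, while Calca was found in 1 of the 77.

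**Figure D5:**
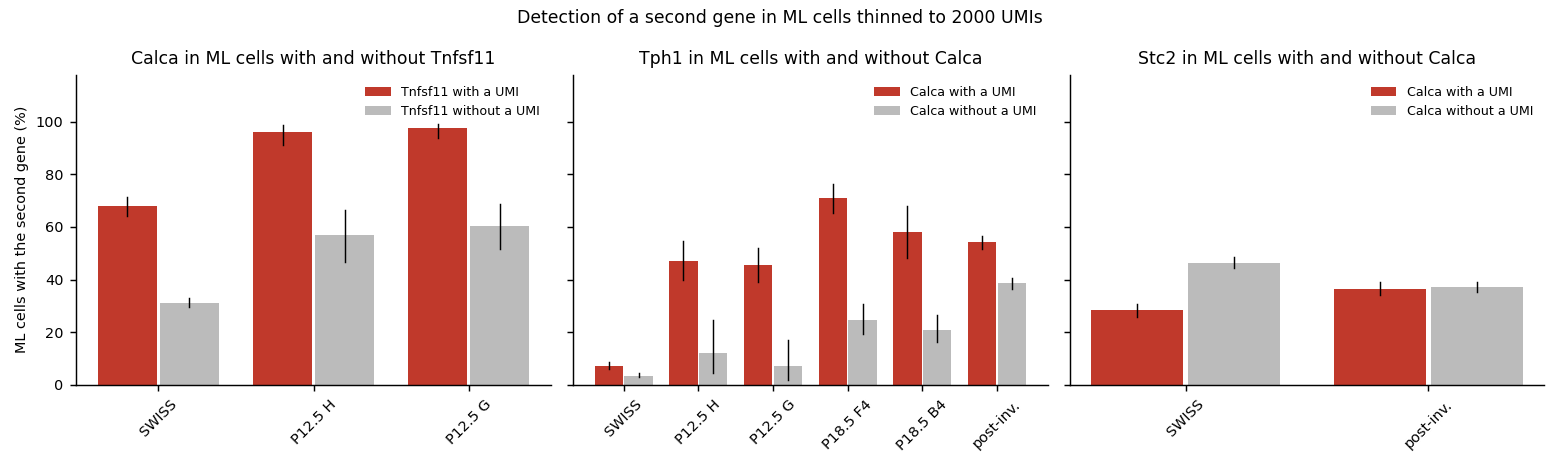
Percent of ML cells, thinned to 2000 UMIs, in which a second gene was found, for cells with and without the first gene, by library. Calca is found in 96.1% of Tnfsf11-positive against 56.9% of Tnfsf11-negative cells of H, and Stc2 in 28.3% of Calca-positive against 46.4% of Calca-negative cells of the SWISS adult.

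Across the 17 libraries, levels in ML cells (log2 of CPM plus 5) of Tnfsf11 and Calca had a Pearson correlation of 0.73 and those of Calca and Stc2 one of −0.51, as a description of libraries that differ in stage, strain and depth. Among 9372 genes with a mean of 5 CPM or more, those most like Tnfsf11 were Cdh2 (0.95), which encodes N-cadherin, Fkbp5 (0.92), a steroid-responsive co-chaperone, and Suox (0.90). For Calca they were Bmpr1b (0.96), a BMP receptor, the uncharacterized Gm10032 (0.94) and the adrenergic receptor gene Adra1a (0.91). Tph1 was followed by Hepacam2 (0.89), Gdpd3 (0.87) and Got1 (0.86), and Stc2 by Tmprss2 (0.95), Acsbg1 (0.93) and Wnt7b (0.92). Cck was followed less closely by Ltf, Lalba and Mfge8 (0.78, 0.75 and 0.73), which encode milk proteins, and Pthlh by Igf1, Car3 and Fabp5 (0.91, 0.90 and 0.79). The genes most like Fgf10 were Mfap4, Lum and Nnat (0.97, 0.96 and 0.95), of which the first 2 encode matrix proteins. Fgf10 had a mean of 0.456 CPM over these libraries, and its highest level rests on 6 UMIs in 69 ML cells at E18.5. Its correlations therefore lean on that library. Pthlh too was highest at E18.5 (40 UMIs in the 69 cells) and next in D6, where the ML label was not borne out.

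Of 15 receptor genes for these signals, 6 passed the low-count filter in ML cells. From adult to day 12.5 edgeR called 2 higher and 0 lower (4 at an unadjusted p under 0.05), against 5.52% of all genes, and DESeq2 called 2 higher and 2 lower. The list's median was −1.31 against −0.06 over all genes. The decoy receptor Tnfrsf11b rose by 2.59 ± 0.51 (adjusted p = 0.0160), from 0.596 (A10), 0.778 (P7) and 1.25 (D12) CPM to 7.46 (H) and 3.799 (G). All ML cells of H and G held 1474614 and 1842760 UMIs of any gene, so the Tnfrsf11b call rests on few UMIs. RANK (Tnfrsf11a) rose by 2.53 ± 0.59 (adjusted p = 0.0330), from 2.76, 2.59 and 1.61 to 17.6 and 10.3 CPM, and stayed higher in other luminal (24.9 and 24.8 CPM) and basal cells (42.6 and 43.6 CPM) of these libraries. Both calls were lost without H (adjusted p of 0.281 and 0.325) or G (0.0681 and 0.141), that of RANK also without D12 (0.0781), F4 (0.0613) or B4 (0.0630). In lactation against adult edgeR called 3 of the 6 receptor genes tested, all higher, against 6.93% of all genes, where DESeq2 called 3 higher and 1 lower. The 3 were Tnfrsf11a (3.69 ± 0.58, adjusted p = 0.00338), Tnfrsf11b (4.45 ± 0.47, adjusted p = 0.000434) and the calcitonin-family co-receptor Ramp3 (3.54 ± 0.78, adjusted p = 0.0242). The lactation calls of this list and the lists that follow were not recomputed without single libraries. In other luminal cells at day 12.5 edgeR called 3 of 10 lower and 0 higher (5 at an unadjusted p under 0.05), against 8% of all genes, and DESeq2 called 3 lower and 1 higher. The 3 were Tnfrsf11b (−2.34 ± 0.56), Ramp1 (−2.67 ± 0.35) and Fgfr1 (−2.06 ± 0.45).

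Of 7 genes downstream of RANK, all were tested and 1 was called from adult to day 12.5, against 5.52% of all genes: Rspo1, a Wnt-pathway growth factor that RANKL induces, rose by 6.33 ± 0.70 (adjusted p = 0.000921). It stood at 0.410 (A10), 1.30 (P7) and 2.50 (D12) CPM in adults and 127 (H) and 99.9 (G) at day 12.5, and the SWISS adult again lay between at 25.4 CPM. In lactation against adult, Ccnd1 (−1.95 ± 0.52, adjusted p = 0.0477) and Relb (−1.77 ± 0.40, adjusted p = 0.0240) fell and none of the 7 rose by edgeR, against 6.93% of all genes. Of 10 other hormone-regulated signals 8 were tested, of which edgeR called 1 higher and 1 lower at day 12.5, against 5.52% of all genes, and DESeq2 called 1 higher and 2 lower. Tgfb2 rose (3.12 ± 0.39, adjusted p = 0.00197) and Wnt5a fell (−3.72 ± 0.73, adjusted p = 0.0163; lost without H, 0.232, or G, 0.161) at day 12.5. Wnt5a fell (−2.89 ± 0.72, adjusted p = 0.0369) and Igf1 rose (6.28 ± 1.15, adjusted p = 0.00982) in lactation, against 6.93% of all genes. DESeq2 called 1 of this list higher and 3 lower there.

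Of 9 genes that make, carry or break down serotonin, 6 were tested at day 12.5 and edgeR called 0, against 5.52% of all genes (2 at an unadjusted p under 0.05, 1 called by DESeq2). The nearest was Maoa, which encodes an enzyme that degrades serotonin, at −2.93 ± 0.79 (adjusted p = 0.0560). It was the 1 gene of this list called in lactation, against 6.93% of all genes, and fell there by 3.26 ± 0.87 (adjusted p = 0.0483). Ddc, whose enzyme turns the product of Tph1 into serotonin, was not tested: ML cells held 1 (A10), 0 (P7) and 3 (D12) Ddc UMIs in the adults, 68 in the SWISS adult (1.68 CPM) and 0 in both libraries of day 12.5 and both of lactation, where 3 UMIs or fewer would not have been told from 0. Of 9 genes for the processing of prohormones and shed ligands, 6 were tested and 0 called at day 12.5 (1 at an unadjusted p under 0.05, 0 by DESeq2), the nearest being the peptide-amidating enzyme gene Pam at −1.42 ± 0.58 (adjusted p = 0.185). Of 7 paralogs of the members 2 were tested, the stanniocalcin gene Stc1 (1.74 ± 0.55, adjusted p = 0.0928) and Tnfsf10, which encodes TRAIL (2.48 ± 0.67, adjusted p = 0.0569), and neither was called by edgeR (both at an unadjusted p under 0.05, 1 called by DESeq2). In lactation these 2 lists had no call by edgeR, against 6.93% of all genes (0 and 1 genes at an unadjusted p under 0.05, 0 by DESeq2). The test of the difference between ML and other luminal change at day 12.5 did call some, against 10.5% of all genes: both tested paralogs, Stc1 (1.45 ± 0.39, adjusted p = 0.0290) and Tnfsf10 (3.06 ± 0.76, adjusted p = 0.0184), and 2 of 7 processing genes, the prohormone carboxypeptidase gene Cpe (5.10 ± 0.68, adjusted p = 0.000251) and the membrane protease gene Mmp14 (1.54 ± 0.33, adjusted p = 0.00886), were higher, and Maoa was lower (−1.94 ± 0.50, adjusted p = 0.0212). DESeq2 also called 2 paralogs and 2 processing genes higher and 1 serotonin gene lower. In the same test edgeR called 2 of 10 receptor genes higher (Tnfrsf11b and Fgfr1), 1 of 7 genes downstream of RANK higher (Rspo1) and, of 9 other signals, 2 higher (Areg and Tgfb2) and 1 lower (Wnt5a).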

How the data were processed

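Libraries were made by the study on the 10x Chromium platform. The authors deposited raw UMI counts per gene and cell barcode, made with Cell Ranger (3.1.0 per the labels; 3.0.2 or 3.1.0 per the file headers) on mm10, without normalization. From these counts, cells were kept by the study's quality limits (132599 of 149371 barcodes), and classes were set per cell by UMIs of fixed genes. No doublet caller was run. Counts were summed per library and class (20 or more cells), filtered by expression, scaled by TMM and tested with edgeR 4.0.16 in R 4.3.3 (glmQLFit, glmQLFTest); DESeq2 1.42.0 was the alternative. The 9 FVB/NJ libraries of the 4 replicated stages entered 1 fit per class, so stages share 1 estimate of the spread. CPM are UMIs scaled to the same total in every class and library. Shares of positive cells were also computed with cells thinned to 2000 UMIs, with class set before thinning. Zero counts were bounded at 3 UMIs. The fits were tested on simulated counts with known changes. From adult to day 12.5 in ML cells they recovered 4% of 2-fold and 36% of 4-fold changes, with 3 false among 43 calls. The shares were 3% and 53% in other luminal cells and 5% and 48% in basal cells. In the simulation most changes of up to 4-fold in ML cells were thus missed. It changed few genes, took their spread from the trend over all genes and gave 43 calls against 627 in the real comparison. Its rates therefore need not hold for the real fits. Median depth was 2498 to 21609 UMIs per kept cell, so rare transcripts in the few ML cells of pregnancy and lactation are measured with wide error. Alternatives were other normalizations and filters, other ML rules, thinning, and leaving out each library. An alternative without milk genes was chosen after seeing the data. The members, gene lists and rules were chosen with earlier results of these data known. Genes named were all members, the 2 most changed called genes of each list, any gene behind a count of 5 or fewer, and the 3 genes most correlated with each member; Ddc, Pam and the list genes of the test of the difference were named after their values were seen. Gene positions are from the GENCODE annotation of GRCm38.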

Additional observations from a re-analysis of the deposited data

Results flagged for a closer look

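In 4 cases the change from adult to pregnancy day 12.5 in ML cells of a member differed from that in other luminal cells of the same libraries by the test of the difference itself. The difference (ML minus other luminal, log2, edgeR with the library as a term) was 4.85 for Calca, 3.79 for Tph1, −5.27 for Stc2 and 2.98 for Cck. For Calca, ML cells went from 0, 16.1 and 23.6 CPM to 2877 and 2473 CPM. Other luminal cells went the same way, from a mean of 1.92 CPM to 10.1 and 11.6 CPM (3.25 ± 1.55, edgeR adjusted p = 0.208). For Stc2 the ML level ended at 2.71 and 4.88 CPM, below the 7.45 and 8.83 CPM of other luminal cells. The level of other luminal cells had itself fallen, from a mean of 127 CPM in the adults.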

How the results depend on the processing

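Of the log2 changes of single genes recomputed under other settings, 817 kept their direction and their side of the threshold, 65 became calls, 56 lost the call and 9 changed sign. Of the shares of positive cells, 252 moved by less than the spread between libraries or the counting interval and 210 by more. The numbers of members called that changed by over 1.5 times were these, the others moving by at most 1 member; the cause was not tested. DESeq2 called 1 in ML cells from day 18.5 to lactation, in other luminal cells 4 at day 12.5 and 2 at day 18.5, and in basal cells 3, 1 and 2. Without the filter on low counts these were, in ML cells, 2 (day 18.5), 3 (day 18.5 to lactation) and 5 (adult to lactation), in other luminal cells 5 and 3, in basal cells 5, 2 and 2, and 1 for the difference between ML and other luminal change at day 18.5. Without TMM scaling other luminal cells gave 0 (day 18.5) and 1 (lactation), and basal cells 1 (day 12.5) and 1 (lactation). DESeq2's size factors in edgeR gave 1 in basal cells at day 12.5. With 1000 or more genes per cell, other luminal cells gave 2 at day 18.5 and basal cells 1 at day 12.5 and 1 in lactation. With cells thinned to 2000 UMIs, other luminal cells gave 4, 0 and 1 and basal cells 1 at day 12.5. An ML rule of 2 UMIs gave 1 in ML cells from day 18.5 to lactation, and of 5 UMIs 1 (day 12.5) and 0 (day 18.5) in other luminal cells, as did a rule without Prlr (0, day 18.5).

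With each library left out in turn, a lone library of a stage being assumed to vary like the other stages, members called ran from 0 to 3 in ML cells at day 12.5, 0 to 4 from adult to lactation and 0 to 0 at the other 2 steps; 0 to 3, 0 to 2 and 0 to 3 in other luminal cells; 0 to 1, 0 to 0 and 0 to 2 in basal cells; 3 to 4, 0 to 0 and 0 to 0 for the differences; and 4 to 5 (other luminal) and 5 to 6 (basal) in the adult class comparisons. Changes of sign in ML cells at day 12.5, all without a call, were those of Tph1 when thinned (0.35), with a rule of 5 UMIs (0.14), without Prlr (0.28) and without P7 (1.07; range −0.93 to 1.07), of Cck when thinned (0.40) and of Pthlh with a rule of 2 UMIs (−0.21) and without H (−0.063; range −0.063 to 1.16). Calca from adult to lactation ran from −1.33 without F11 to 7.40 without D6. The Tnfsf11 difference between ML and other luminal change at day 12.5 was −0.12 with 1000 or more genes per cell. Leaving milk genes out of the sums, an alternative chosen after seeing the data, changed no call of a member between stages. Depth limits low shares: in H they rest on 233 ML cells. No paired analysis was possible because the libraries of different stages share no replicate names.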
